A study of Mus musculus with 6 samples.

Results

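The genes described here are 32 mouse genes of the endoplasmic reticulum (ER) folding machinery and the unfolded protein response. They were chosen by symbol, and each symbol was found once among the 39171 genes of the deposited expression table. All 32 had a value above 0 in all 6 libraries, and 30 of them had a mean of at least 1 FPKM and were tested. FPKM divides the fragments of a gene by the length of its transcript and by the size of the library, so it is a level per length. The libraries came from the heart ventricles, without the atria, of wild-type, unmanipulated CD-1 mice, an outbred stock. There were 3 libraries from mice aged 1 day (P1) and 3 from mice aged 2 days (P2), made from polyadenylated RNA. The labels give 3 hearts per age but do not say whether a library is 1 animal, so p-values measure the spread between these libraries. The single comparison of the study is P2 against P1.

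Secreted and membrane proteins fold in the lumen of the ER with the help of chaperones and of enzymes that form and rearrange disulfide bonds. When unfolded proteins build up, 3 sensors in the ER membrane respond: IRE1 (encoded by Ern1), which splices the Xbp1 transcript, ATF6, which is cut to release a transcription factor, and PERK (encoded by Eif2ak3), which slows translation and favours synthesis of ATF4. Together these arms raise the transcription of chaperones and of ER-associated degradation, the route by which misfolded proteins are extracted and handed to the proteasome. In the heart, cardiomyocytes as well as matrix-secreting fibroblasts use this machinery, and calreticulin is needed for heart development in the mouse.

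The ER stress response elements are regulatory sequences held by the promoters of some of these genes. ERSE, written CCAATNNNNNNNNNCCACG, and ERSE-II, written ATTGGNCCACG, are bound by ATF6 with the CCAAT-binding factor NF-Y. Both strands of the RefSeq promoter windows of the GRCm38.p6 build, from 250 bases before to 50 bases after each start, were searched, and 28 of the 32 genes had a window. ERSE was present in 9 of the 28 (32.1%): Hspa5, Hsp90b1 with 2 sites, Calr, Canx, Pdia6, Dnajc3, Creld2, Syvn1 and Derl3. Of all 32851 windows, those of the members included, 39 (0.119%) held it. Counted by gene, 37 of 27025 did. Such elements are known from genes of this response, so their share among the members is a description and was not tested. ERSE-II was present in Herpud1 and Dnajb11, against 12 of all windows (0.0365%). The 5 stretches of 250 bases that follow are shown because these genes carry the largest levels or changes among those with a site. Each ends at the base before the start and runs 5′ to 3′ on the gene's strand. Capitals mark ERSE, or ERSE-II in Herpud1, and a site on the opposite strand reads as its reverse complement.
Hspa5, chr2:34771840-34772089, plus strand: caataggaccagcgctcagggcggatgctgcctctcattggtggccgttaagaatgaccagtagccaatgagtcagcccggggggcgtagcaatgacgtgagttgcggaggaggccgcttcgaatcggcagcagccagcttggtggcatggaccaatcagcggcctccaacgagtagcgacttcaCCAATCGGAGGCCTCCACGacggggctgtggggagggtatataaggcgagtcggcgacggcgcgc
Hsp90b1, chr10:86705445-86705694, minus strand: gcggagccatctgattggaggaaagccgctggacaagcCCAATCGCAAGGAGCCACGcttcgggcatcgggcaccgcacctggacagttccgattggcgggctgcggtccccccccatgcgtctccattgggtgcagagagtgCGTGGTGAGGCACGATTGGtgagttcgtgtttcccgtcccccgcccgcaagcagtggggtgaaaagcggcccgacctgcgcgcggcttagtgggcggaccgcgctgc
Calr, chr8:84846932-84847181, minus strand: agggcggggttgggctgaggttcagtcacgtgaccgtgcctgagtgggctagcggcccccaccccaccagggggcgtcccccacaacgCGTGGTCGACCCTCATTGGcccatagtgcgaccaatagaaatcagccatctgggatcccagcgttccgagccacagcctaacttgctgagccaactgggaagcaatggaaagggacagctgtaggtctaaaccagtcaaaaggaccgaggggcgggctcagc
Pdia6, chr12:17266339-17266588, plus strand: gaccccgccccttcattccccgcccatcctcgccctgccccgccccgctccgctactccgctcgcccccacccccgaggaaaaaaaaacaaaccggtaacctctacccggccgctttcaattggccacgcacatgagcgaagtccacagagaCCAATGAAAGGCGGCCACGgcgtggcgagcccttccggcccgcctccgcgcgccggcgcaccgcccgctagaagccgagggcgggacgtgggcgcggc
Herpud1, chr8:94386179-94386428, plus strand: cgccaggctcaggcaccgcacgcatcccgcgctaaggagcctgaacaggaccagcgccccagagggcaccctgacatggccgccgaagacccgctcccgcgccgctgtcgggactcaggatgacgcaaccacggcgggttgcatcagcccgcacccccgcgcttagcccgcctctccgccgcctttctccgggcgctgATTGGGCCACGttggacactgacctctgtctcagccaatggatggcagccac

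The sites lay 65 to 47 bases before the start in Hspa5, 98 to 80 in Pdia6, 162 to 144 in Calr and 52 to 42 in Herpud1. The 2 sites of Hsp90b1 lay 212 to 194 and 107 to 89 bases before it. That of Syvn1 lay 44 to 26 bases before the start, and the ERSE-II of Dnajb11 lay 7 to 17 bases after it. The starts are those of RefSeq. In GENCODE the Hspa5 gene begins further upstream, at base 34771970 of its chromosome, and its ERSE lies within that gene. Other motifs were rarer among these genes or commoner among all promoters. TGACGTGG or TGACGTGA, the core of the element bound by XBP1 and ATF6, was in Hspa5 alone of the 28, against 367 of all windows (1.12%). TGATGNAAN, the element bound by ATF4 with a C/EBP partner, was in Herpud1 and Trib3, against 1299 of all windows (3.95%). A match describes letters in a window and is not evidence of binding.

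The 16 luminal folding genes ranged in mean level from percentile 26.2 of tested genes (Sdf2l1) to 96.6 (Hspa5). The highest mean level was that of Hspa5 (BiP, the ATP-driven chaperone of the lumen). Next came Calr (calreticulin, a lectin chaperone that also binds calcium), Hsp90b1 (GRP94, the ER form of HSP90), P4hb (protein disulfide isomerase, also a subunit of collagen prolyl hydroxylase) and Canx (calnexin, the membrane-bound lectin chaperone). The soluble chaperones Hspa5, Hsp90b1 and Hyou1 held 23.2% of the summed FPKM of the 32 genes, the disulfide isomerases 22.4% and the 2 lectin chaperones 18.6%. The 3 stress sensors together held 1.51%. At the low end were Trib3, a pseudokinase induced by ATF4 and CHOP, at 0.759 to 1.31 FPKM, and Derl3, at 0.0758 to 0.253 FPKM, while its relatives Derl1 and Derl2 stood at 31.6 to 34.2 and 12.9 to 16.3 FPKM.

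**Figure D1:**
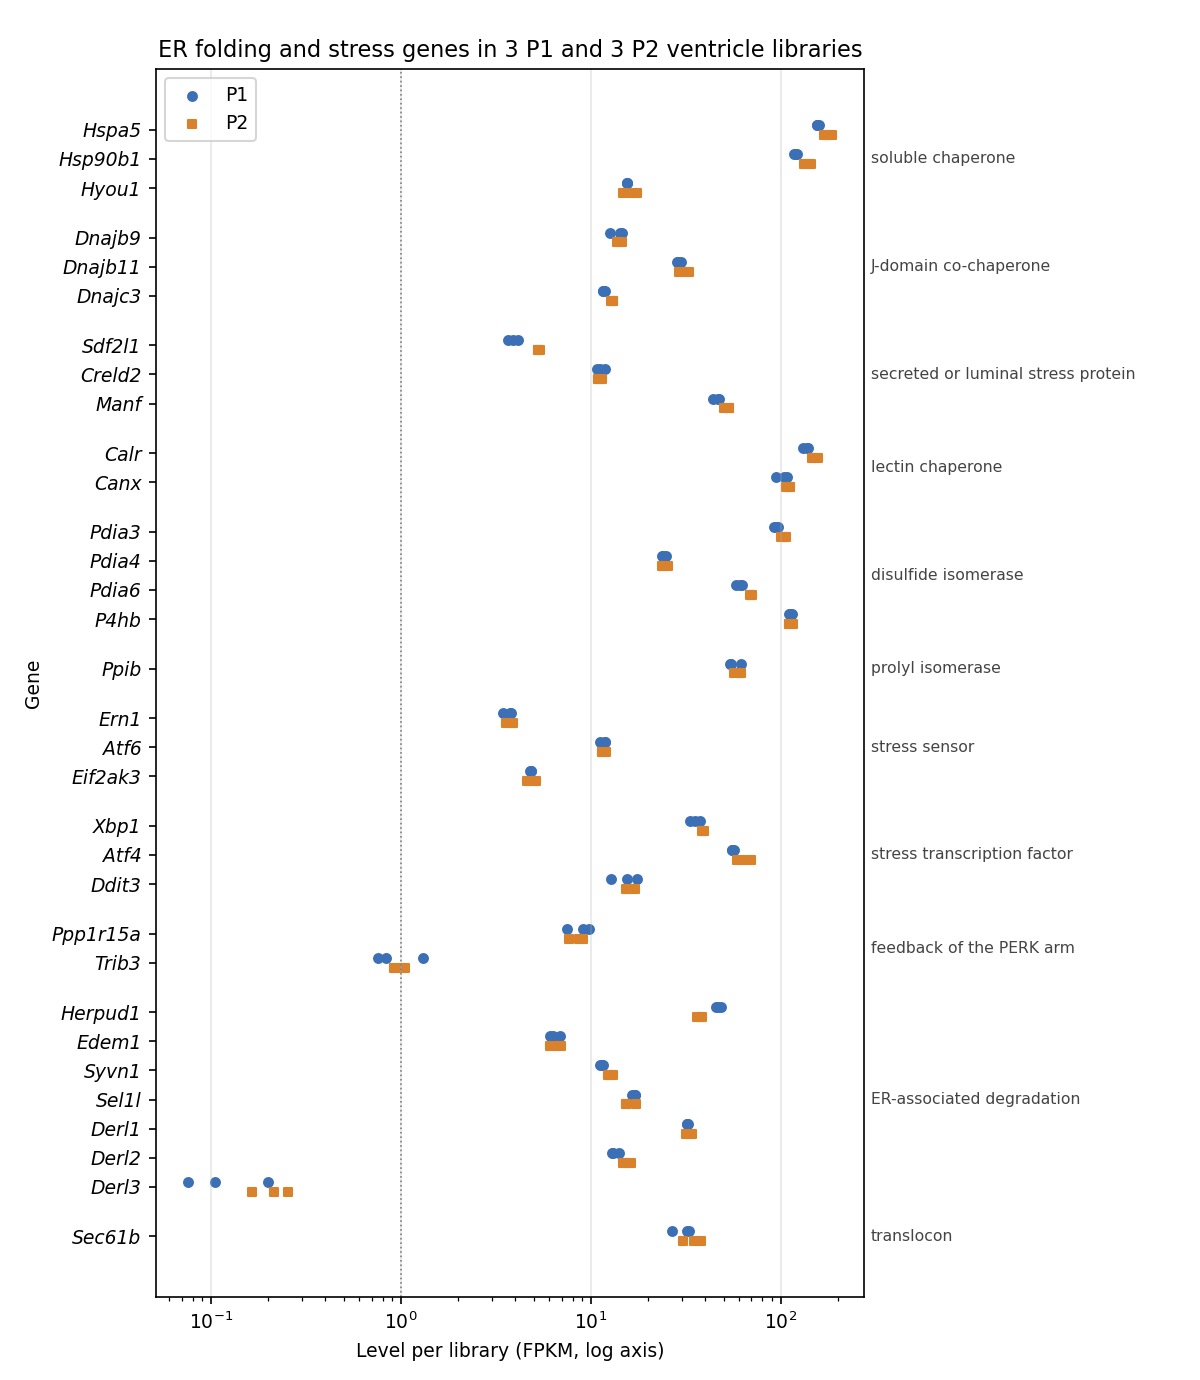
FPKM of the 32 genes on a log axis, one point per library, grouped by role and coloured by age. Hspa5, Calr, Hsp90b1 and P4hb lie above 100 FPKM in every library, and Derl3 and Trib3 lie near or below 1 FPKM.

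No member was called in the comparison of P2 with P1. The limma fit covered 13624 genes, of which 22 (0.161%) were called at an adjusted p under 0.05 by the method of Benjamini and Hochberg, 10 higher and 12 lower at P2. The lowest adjusted p among the 30 tested members was 0.0759, for Herpud1. The median log2 change of the 30 was 0.09, against 0.01 over all tested genes, and 24 of the 30 were positive, against 54.7% of all. At an unadjusted p under 0.05, 12 members were higher at P2, where 10.7% of all genes were, and 1 was lower, where 7.89% were. The same 12 had all P2 values above all P1 values, a pattern found in 14.4% of all genes, and Herpud1 had all P2 values below, as 10.6% of all genes did. Because these RNAs came from whole ventricle, more cells of a type and more RNA per cell cannot be told apart.

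**Figure D2:**
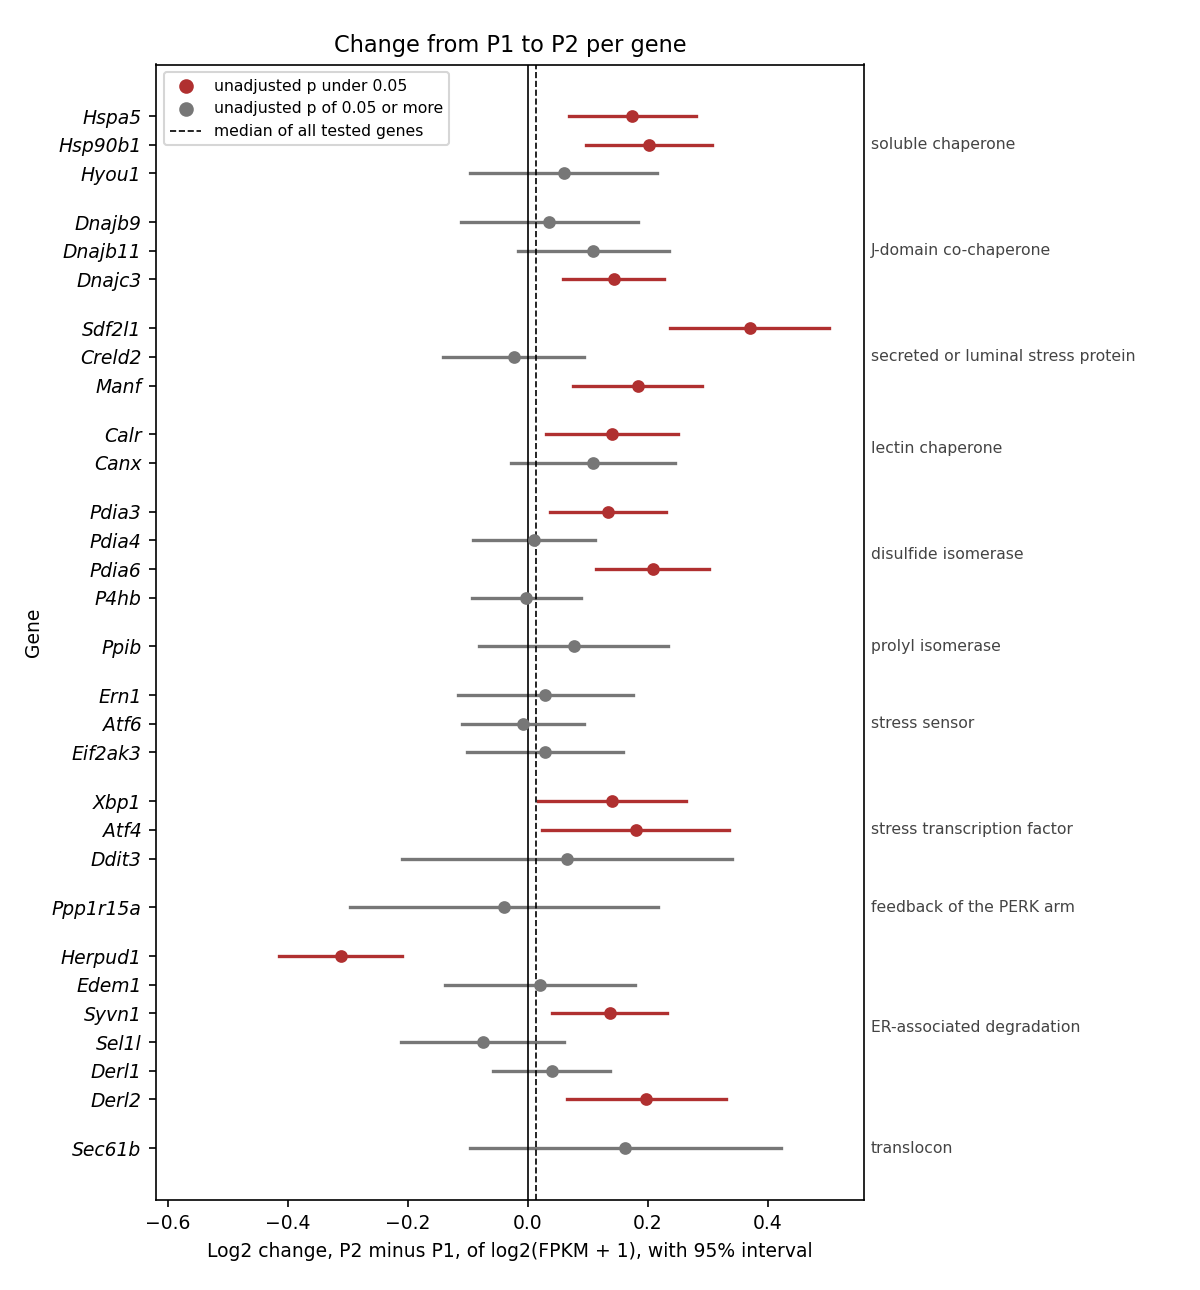
Log2 change from P1 to P2 of log2(FPKM + 1) per gene, with 95% intervals from the limma fit, grouped by role. Sdf2l1 at 0.37 and Herpud1 at -0.31 stand at the ends, and the 3 sensors lie near 0.

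The sign of these small changes depended on the scale. The deposited FPKM sum was larger at P2 (807632 to 858436) than at P1 (716968 to 754510). Mitochondrial genes held 30.8% to 34.5% of it at P1 and 33.6% to 39.5% at P2. The sum of nuclear protein-coding genes was 398176 to 406739 at P1 and 402631 to 420010 at P2. When all libraries were rescaled to an equal FPKM sum, the median of all genes moved to -0.14 and that of the members to -0.08, and 7 of the 30 were positive. On that scale 2433 genes (17.8%) were called, among them Sdf2l1 (higher) and Herpud1, Creld2, Pdia4 and Sel1l (lower). Scaling to an equal sum of nuclear protein-coding genes, to the median ratio or to equal quantiles gave member medians of 0.06, 0.08 and 0.06, with 22 to 23 positive. The members' median stood 0.06 to 0.08 above the median of all genes on each of these 5 scales. At an unadjusted p under 0.05, an equal FPKM sum left 1 member higher (1.21% of all genes) and 6 lower (37.8%). An equal nuclear protein-coding sum gave 9 higher (8.33%) and 1 lower (11.0%), with 0 members and 19 genes called (0.139%). The median ratio gave 11 higher (9.97%) and 1 lower (9.82%), with 0 members and 21 genes called (0.154%). Equal quantiles gave 8 higher (9.73%) and 1 lower (10.4%), with 0 members and 22 genes called (0.161%).

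**Figure D3:**
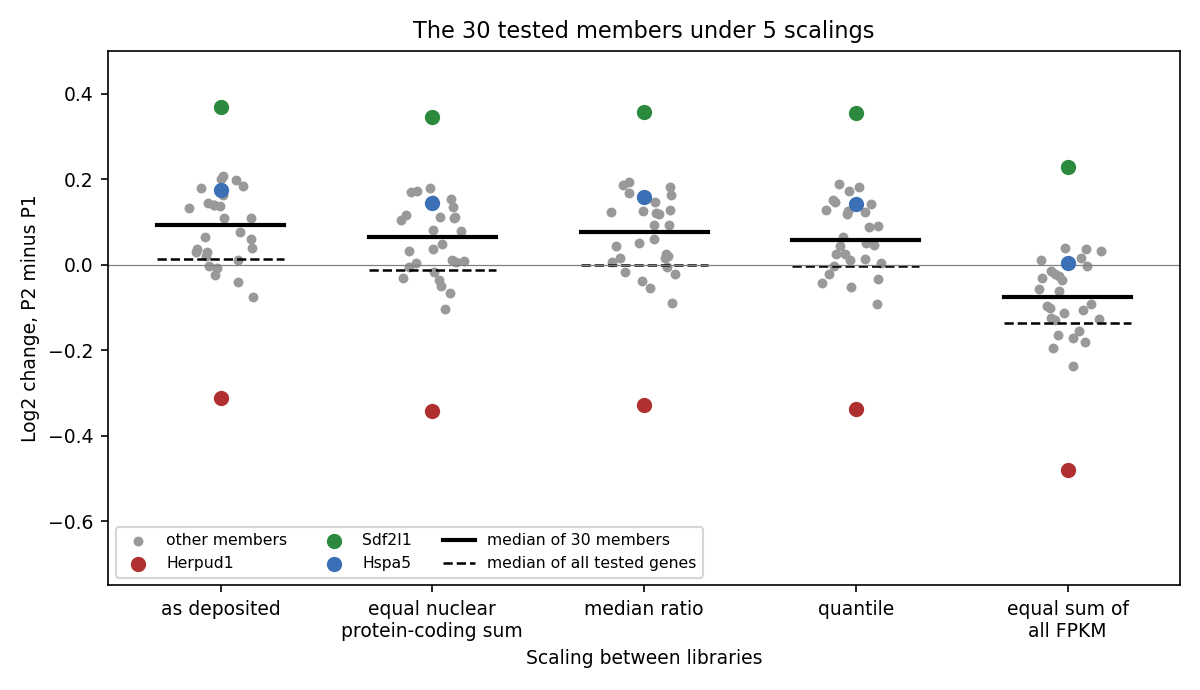
Log2 change of each of the 30 tested members under 5 scalings, with the median of all genes marked. The members shift with the scale, to a median of -0.08 with an equal FPKM sum, and their median lies above that of all genes in each.

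Among the chaperones and their partners, 10 of 11 had a positive change as deposited, against 54.7% of all genes, with a median of 0.14. At an unadjusted p under 0.05, 6 were higher, where 10.7% of all genes were. Hyou1, Dnajb9, Dnajb11, Dnajc3, Calr and Canx turned negative with an equal FPKM sum. Hspa5 measured 155, 156 and 159 FPKM at P1 and 177, 169 and 185 FPKM at P2. All P2 libraries were above all P1 libraries. The means were 157 ± 2.29 and 177 ± 8.23 FPKM (SD, n = 3), a log2 change of 0.17 ± 0.04 (SE) with a limma adjusted p of 0.152.

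Hsp90b1 measured 117, 118 and 122 FPKM at P1 and 132, 136 and 144 FPKM at P2. The ages did not overlap. Its log2 change was 0.20 ± 0.04, with a limma adjusted p of 0.134. A gene model on the same strand, Gm15344, overlaps it at 1.45 to 2.74 FPKM.

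The largest change among the 30 was that of Sdf2l1, a luminal partner of the J-domain co-chaperones. It measured 3.65, 4.13 and 3.87 FPKM at P1 and 5.28, 5.38 and 5.25 FPKM at P2. Every P2 library was higher than every P1 library, by 36.6% between the means. The log2 change was 0.37 ± 0.05 with a limma adjusted p of 0.0902, and it stayed between 0.23 and 0.44 over the alternatives, where the adjusted p ran from 0.0387 to 0.239.

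Dnajc3 (p58IPK, a J-domain co-chaperone of BiP) measured 11.5, 11.5 and 11.8 FPKM at P1 and 13.1, 12.99 and 12.8 FPKM at P2. The ages did not overlap, and the log2 change was 0.14 ± 0.03 with a limma adjusted p of 0.146. Of the other J-domain co-chaperones, Dnajb11 changed by 0.11 ± 0.05 (limma adjusted p 0.323) and Dnajb9 by 0.04 ± 0.06 (0.782), and the ages overlapped for both.

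Manf, a secreted protein retained in the ER that is released on stress, measured 46.8, 44.00 and 46.96 FPKM at P1 and 53.3, 50.2 and 53.3 FPKM at P2. All P2 values were above all P1 values. The log2 change was 0.18 ± 0.04 with a limma adjusted p of 0.146. Manf overlaps Rbm15b on the same strand (5.46 to 7.12 FPKM) and Dcaf1 (10.3 to 12.9 FPKM), and fragments could be shared. Creld2, another luminal stress protein, was at 11.3 ± 0.545 FPKM at P1 and 11.1 ± 0.355 FPKM at P2. Hyou1, a nucleotide exchange factor for BiP, had a log2 change of 0.06 ± 0.06.

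Calr measured 131, 138 and 139.7 FPKM at P1 and 147, 147 and 157 FPKM at P2. The ages did not overlap, and the log2 change was 0.14 ± 0.05 with a limma adjusted p of 0.201. Canx overlapped between ages, at 94.3 to 107 FPKM at P1 and 106 to 112 FPKM at P2. The ratio of Calr to Canx, which a single scaling factor per library cannot move, was 1.302 to 1.39 at P1 and 1.31 to 1.41 at P2.

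As deposited, the changes of the disulfide isomerases ranged from near 0 to 0.21. Pdia6, which acts with BiP on disulfide bonds, measured 57.7, 60.7 and 62.2 FPKM at P1 and 70.4, 69.05 and 69.6 FPKM at P2. The ages did not overlap. The means differed by 15.7%, with a log2 change of 0.21 ± 0.04 and a limma adjusted p of 0.118.

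Pdia3 (ERp57, the partner of calreticulin and calnexin) measured 91.6, 94.5 and 96.5 FPKM at P1 and 100.03, 103 and 107 FPKM at P2. The P2 libraries were the higher ones. The log2 change was 0.13 ± 0.04 with a limma adjusted p of 0.184.

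For Pdia4 and P4hb the ages overlapped. Pdia4 was at 24.1 ± 0.5704 FPKM at P1 and 24.3 ± 0.933 FPKM at P2, and P4hb at 112 ± 2.13 and 112 ± 3.34 FPKM. The microRNA gene Mir704 overlaps Pdia4 on the same strand, at 0 to 519 FPKM, and fragments could be shared. The 95% interval of the log2 change of P4hb was -0.09 to 0.09 as deposited. With an equal FPKM sum the log2 change of P4hb was -0.17 ± 0.06, with a limma adjusted p of 0.0808. Ppib (cyclophilin B, a prolyl isomerase that acts on collagen) had a log2 change of 0.08 ± 0.06 with overlapping ages. Pairs of genes within a library were chosen after their values were seen and are given as a description, since a single scaling factor per library cannot move them. Pdia6 over Pdia4 was 2.44 to 2.59 at P1 and 2.74 to 2.93 at P2. Hspa5 over P4hb was 1.39 to 1.41 at P1 and 1.46 to 1.68 at P2.

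As deposited, the sensors did not differ between the ages beyond their spread. With an equal FPKM sum the log2 change of Atf6 was -0.17 ± 0.05, with a limma adjusted p of 0.0606. On that scale Ern1 changed by -0.11 ± 0.06 and Eif2ak3 by -0.11 ± 0.07, where the median of all genes was -0.14. Ern1 measured 3.46, 3.76 and 3.81 FPKM at P1 and 3.903, 3.85 and 3.56 FPKM at P2. Atf6 measured 11.2, 11.9 and 11.9 FPKM at P1 and 11.4, 11.9 and 11.5 FPKM at P2. Eif2ak3 measured 4.84, 4.81 and 4.78 FPKM at P1 and 5.04, 5.16 and 4.601 FPKM at P2. The ages overlapped for all 3. As deposited, the 95% intervals of the log2 changes were -0.12 to 0.17 for Ern1, -0.11 to 0.09 for Atf6 and -0.10 to 0.16 for Eif2ak3. These are transcript levels, and the sensors are switched on as proteins.

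Xbp1 measured 37.6, 35.4 and 33.2 FPKM at P1 and 39.4, 38.5 and 39.1 FPKM at P2. The ages did not overlap, and the log2 change was 0.14 ± 0.05 with a limma adjusted p of 0.233. The gene-level table does not separate spliced from unspliced Xbp1.

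Atf4 measured 56.6, 54.98 and 55.6 FPKM at P1 and 58.6, 69.3 and 62.2 FPKM at P2. The P2 libraries were higher and more spread. The log2 change was 0.18 ± 0.06 with a limma adjusted p of 0.227. It was 0.11 without P2 replicate 2 and 0.011 with an equal FPKM sum.

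Ddit3 (CHOP, a transcription factor linked to cell death under lasting stress) measured 15.5, 17.6 and 12.8 FPKM at P1 and 17.04, 15.4 and 15.3 FPKM at P2. The ages overlapped, and the 95% interval of the log2 change was -0.21 to 0.34. It overlaps Mars on the opposite strand, at 20.2 to 22.7 FPKM. Another protein-coding gene model, also named Ddit3, overlaps it on the same strand and has no value among the deposited genes. Ppp1r15a (GADD34, which restores translation after PERK acts) was at 8.77 ± 1.198 FPKM at P1 and 8.47 ± 0.726 FPKM at P2.

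In ER-associated degradation, 4 of the 6 tested genes had a positive change as deposited, against 54.7% of all genes. At an unadjusted p under 0.05, 2 were higher and 1 lower, where 10.7% and 7.89% of all genes were. Edem1, Syvn1 and Derl1 turned negative with an equal FPKM sum. Herpud1, a membrane protein that organises the ubiquitin ligase complex around the HRD1 ligase, measured 48.5, 46.6 and 45.3 FPKM at P1 and 38.1, 36.1 and 38.3 FPKM at P2. Every P2 library was lower than every P1 library. The means, 46.8 ± 1.58 and 37.5 ± 1.22 FPKM, differed by -19.9%, and the log2 change was -0.31 ± 0.04 with a limma adjusted p of 0.0759. Over the alternatives the log2 change lay between -0.48 and -0.29 and the adjusted p between 0.02200 and 0.223.

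Syvn1, which encodes HRD1 itself, measured 11.6, 11.4 and 11.2 FPKM at P1 and 13.1, 12.3 and 12.5 FPKM at P2. The P2 libraries were the higher ones, with a log2 change of 0.14 ± 0.04 and a limma adjusted p of 0.177. It overlaps Mrpl49, at 22.6 to 24.7 FPKM.

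Derl2, a derlin of the channel through which substrates leave the ER, measured 12.9, 13.1 and 14.1 FPKM at P1 and 15.3, 16.3 and 14.8 FPKM at P2. The ages did not overlap. Its log2 change was 0.20 ± 0.05 with a limma adjusted p of 0.167, and Mis12 overlaps it at 7.99 to 9.42 FPKM. The ages overlapped for the HRD1 adaptor Sel1l (log2 change -0.08 ± 0.06), for Derl1 (0.04 ± 0.04), for the mannosidase-like Edem1 (0.02 ± 0.06) and for Sec61b, a subunit of the translocon through which new chains enter (0.16 ± 0.11).

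Within single libraries, Herpud1 over Syvn1 was 4.19, 4.09 and 4.04 at P1 and 2.91, 2.94 and 3.07 at P2. Herpud1 over Hspa5 was 0.312, 0.299 and 0.284 at P1 and 0.215, 0.214 and 0.207 at P2. Both ratios were lower in every P2 library. Herpud1 and Hspa5 each hold an element of the same family in the windows shown above and had changes of opposite sign as deposited. With an equal FPKM sum the change of Hspa5 was 0.0035 and that of Herpud1 was -0.48.

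**Figure D4:**
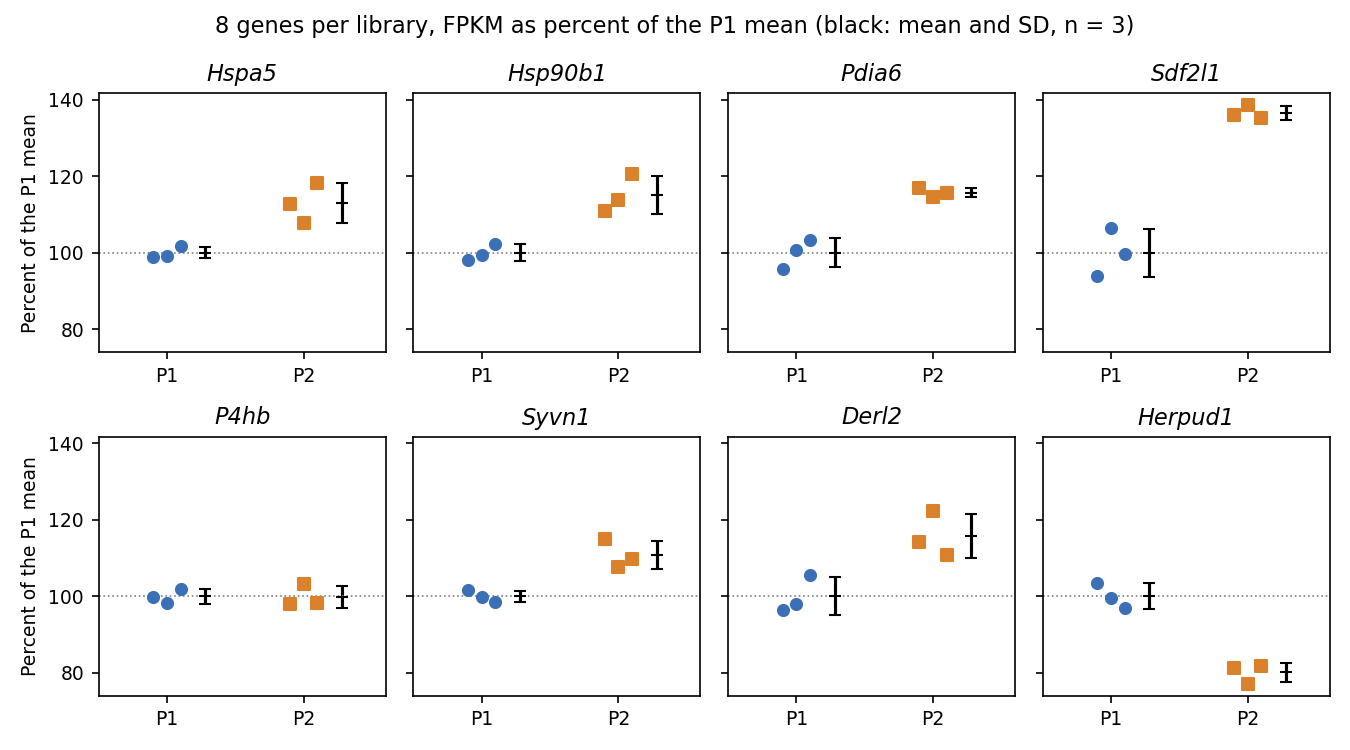
FPKM of selected genes in each library as a percentage of the gene's P1 mean, with the age on the x axis and the mean and SD beside the points. Herpud1 lies below 100 in all P2 libraries, while Sdf2l1 lies above it in all of them.

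The members with an element held changes of both signs, and the counts here are those of the deposited scale. Of the 11 with ERSE or ERSE-II, 10 were tested, 8 were positive and the median log2 change was 0.14, with 6 higher and 1 lower at an unadjusted p under 0.05. Of the 17 members with a window and neither element, 16 were tested, 13 were positive and the median was 0.05, with 5 higher and 0 lower at an unadjusted p under 0.05. Of all tested genes on that scale, 54.7% were positive, and 10.7% were higher and 7.89% lower at an unadjusted p under 0.05. Members of both groups turned negative with an equal FPKM sum, such as Calr and Syvn1 with an element and Pdia3 and Xbp1 without. The difference between the groups was not tested. Sdf2l1, with the largest change, was among the members with neither element.

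Genes of the neighbouring routes were read from 7 further lists, with counts on the deposited scale that turn mostly negative with an equal FPKM sum. Of all tested genes as deposited, 54.7% were positive, and 10.7% were higher and 7.89% lower at an unadjusted p under 0.05. In vesicle transport and ER retrieval, 20 of 25 tested genes were positive (median 0.09), 8 were higher and 0 lower at an unadjusted p under 0.05. With an equal FPKM sum 3 were positive, 0 higher and 6 lower. Kdelr3, a receptor that returns luminal proteins to the ER, was at 18.6 ± 0.235 FPKM at P1 and 21.9 ± 0.5405 FPKM at P2 (log2 change 0.22 ± 0.04, limma adjusted p 0.0955). Kdelr2 had a log2 change of 0.16 ± 0.04 and Kdelr1 one of -0.09 ± 0.04, with limma adjusted p of 0.136 and 0.283. In the translocon and signal peptide list, 21 of 24 were positive (median 0.08), 9 higher and 1 lower. Tram1, a translocon-associated protein, was at 27.3 ± 1.43 FPKM at P1 and 32.2 ± 0.605 FPKM at P2.

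In the other ER folding enzymes, 21 of 33 were positive (median 0.03), 5 higher and 2 lower. Serpinh1 (HSP47, the collagen chaperone) was at 225 ± 4.78 FPKM at P1 and 274 ± 3.06 FPKM at P2, with a log2 change of 0.28 ± 0.03 and a limma adjusted p of 0.0659. Fkbp10, a prolyl isomerase that also acts on collagen, was at 45.4 ± 1.78 and 37.9 ± 0.639 FPKM, with a log2 change of -0.25 ± 0.04 and a limma adjusted p of 0.0955. In the other ER-associated degradation genes, 15 of 25 were positive (median 0.01), 1 higher and 2 lower. Edem2, a mannosidase of the same route, had a log2 change of -0.26 ± 0.06 (limma adjusted p 0.146).

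Of the ATF4 and integrated stress response targets, 17 of 27 were positive (median 0.06), 6 higher and 2 lower. Atf5 had a log2 change of 0.24 ± 0.05 and Pck2 one of -0.21 ± 0.06, with limma adjusted p of 0.134 and 0.166. Of the other sensors and regulators, 17 of 22 were positive (median 0.05), 1 higher and 0 lower. Among heat shock genes outside the ER, 20 of 26 were positive (median 0.06), 4 higher and 2 lower, with Hspa4l at a log2 change of 0.28 ± 0.07 (limma adjusted p 0.1395). As deposited, none of these 7 lists held a called gene. With an equal FPKM sum all 7 medians were negative, between -0.16 and -0.08, where that of all genes was -0.14. On that scale each list held 1 to 7 called genes, where 17.8% of all genes were called. Each held 0 to 1 higher and 6 to 14 lower at an unadjusted p under 0.05, where 1.21% and 37.8% of all genes were. Each held 1 to 8 positive changes.

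**Figure D5:**
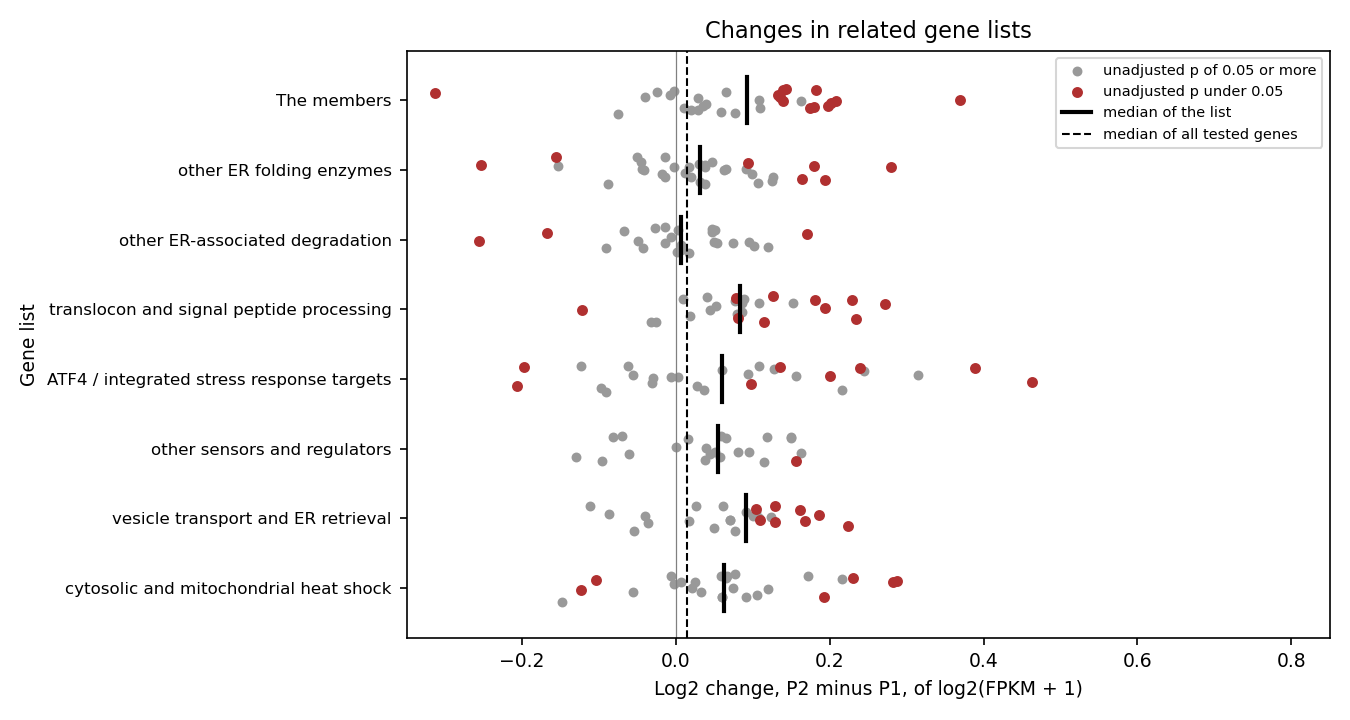
Log2 change of each tested gene in the members and the 7 further lists, with list medians (bars) and the median of all genes (dashed), and red for an unadjusted p under 0.05. The medians of the lists lie between 0.01 and 0.09 as deposited, and the points of each list fall on both sides of 0.

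Markers of cell types were read beside these genes. Their sums are given as deposited, where the FPKM sum of all genes was larger at P2, and were not rescaled. The summed FPKM of 8 cardiomyocyte markers was 10900 to 11489 at P1 and 11745 to 11926 at P2. That of 8 endothelial markers was 329 to 359 and 361 to 371, and neither sum overlapped between ages. The sum of 8 fibroblast markers was 1399 to 1589 at P1 and 1487 to 1771 at P2. The 6 smooth muscle and pericyte markers were at 418 to 568 and 441 to 458. The 6 macrophage and leukocyte markers were at 33.4 to 40.04 and 32.5 to 35.3. The 6 epicardial markers were at 39.8 to 44.01 and 29.7 to 37.3, and the 6 atrial markers at 958 to 1512 and 551 to 784. The 6 erythroid markers were at 956 to 1354 and 751 to 950, and the 6 plasma and B cell markers, a cell type rich in this machinery, at 1.16 to 2.17 and 1.48 to 1.804. The epicardial, atrial and erythroid sums also did not overlap between ages and were lower at P2. The atrial marker Bmp10, at 3.32 ± 0.284 FPKM at P1 and 1.28 ± 0.12 FPKM at P2, was called (log2 change -0.92 ± 0.08, limma adjusted p 0.0306). No marker was at 0 in all libraries. The part of these differences in the results above was not tested.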

How the data were processed

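Polyadenylated RNA of 6 ventricle libraries, 3 at P1 and 3 at P2, was sequenced on an Illumina HiSeq2500, per the labels. The authors deposited 1 table of FPKM values. Cuffdiff 2.2.1, R 3.2, TopHat2 and FastQC are named in the submitters' processing notes. The build, annotation release and strand use behind the table were not given in the sources used here. Without counts the absolute depth is unknown. The value of 1 fragment, read from genes under 0.05 FPKM, was 0.934 to 1.11 times that of P1 replicate 1. Symbols came from GENCODE M21 (37605 of 39171 identifiers matched).

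From the deposited values, limma 3.58.1 (R 4.3.3) was run on log2(FPKM + 1), with age as the only factor and a variance trend, over 13624 genes whose mean reached 1 FPKM. The test was two-sided with Benjamini-Hochberg adjustment and a threshold of 0.05. Fold changes on this scale understate those of low genes. Exact permutation of 3 against 3 libraries gives no p below 0.1 and was not used. The fit was tested on simulated data with planted changes. The members and lists were chosen with earlier results of these data known. Members with an unadjusted p under 0.05, the sensors and the main factors are shown per library, and up to 3 genes with the smallest p were eligible to be named from each further list. Kdelr1 was chosen after its values were seen. Motifs were searched in all RefSeq windows. Of the 29 windows of the members, 24 had a stretch shortly after the start in a GENCODE transcript, and other windows were not checked. The start base itself was not checked. Python 3.11.15, pandas 2.3.3, numpy 2.4.6 and matplotlib 3.10.9 were used. Alternatives were another pseudocount, filter, scaling, variance model and weighting, the replicate block, genes listed at 0 left out, and each library left out.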

Additional observations from a re-analysis of the deposited data

How the results depend on the processing

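Depth behind each value is unknown, and 3 libraries per age limit the precision. The 22 genes called became 40 with a pseudocount of 0.1, 41 with a filter of 5 FPKM, 14 without the variance trend, 111 with genes listed at 0 in any library left out and 2433 with an equal FPKM sum. Leaving out 1 library gave 5 to 25, with 5 without P1 replicate 1 or P1 replicate 2. The members called went from 0 to 5 with an equal FPKM sum and to 2 with genes listed at 0 left out (Herpud1, adjusted p 0.0337, and Sdf2l1, 0.0476), and stayed at 0 with any 1 library left out. Members higher at an unadjusted p under 0.05 went from 12 to 1 with an equal FPKM sum and to 8 to 12 with 1 library left out, the 8 being without P2 replicate 3. Members lower went from 1 to 6 and to 1 to 2. The member median went from 0.093 to -0.077 with an equal FPKM sum and to 0.073 to 0.098 with 1 library left out. The labels state no pairing by replicate number. Same-numbered libraries had deviation correlations of -0.011, 0.101 and 0.009, and not every library correlated best with its own number. With 3 libraries per age such correlations cannot exclude a pairing. With the replicate block 5 genes were called, 11 members were higher at an unadjusted p under 0.05, and the lowest member adjusted p was 0.214.

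With an equal FPKM sum 17 members changed sign: Hyou1 -0.10, Dnajb9 -0.12, Dnajb11 -0.057, Dnajc3 -0.016, Calr -0.030, Canx -0.061, Pdia3 -0.037, Pdia4 -0.15, Ppib -0.092, Ern1 -0.11, Eif2ak3 -0.11, Xbp1 -0.027, Ddit3 -0.096, Edem1 -0.13, Syvn1 -0.022, Derl1 -0.13 and Sec61b -0.0040. On the same scale Hspa5 was at 0.0035, Hsp90b1 at 0.031, Manf at 0.015, Atf4 at 0.011, Derl2 at 0.037, Pdia6 at 0.039 and Sdf2l1 at 0.23. Members negative on both scales were then Atf6 at -0.17, P4hb at -0.17, Creld2 at -0.18, Ppp1r15a at -0.19, Sel1l at -0.24 and Herpud1 at -0.48. With an equal nuclear protein-coding sum Pdia4 was at -0.018 and Edem1 at -0.0059. Pdia4 was at -0.0050 under the median ratio and -0.0043 under equal quantiles. With array weights Ppp1r15a was at 0.0043. With 1 library left out, 9 members changed sign: Dnajb9 ran from -0.022 to 0.073, Creld2 from -0.054 to 0.0096, Pdia4 from -0.019 to 0.031, P4hb from -0.027 to 0.012, Ern1 from -0.0046 to 0.060, Atf6 from -0.034 to 0.0049, Ddit3 from -0.050 to 0.17, Ppp1r15a from -0.14 to 0.034 and Edem1 from -0.018 to 0.064. The cause of these shifts was not tested, beyond the larger FPKM sum at P2.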

Other observations

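ERSE or ERSE-II was also present in the windows of 38 genes outside the 32, of which 14 were tested. Of these 7 were positive as deposited, against 54.7% of all genes, and the median log2 change was 0.00. At an unadjusted p under 0.05, 0 were higher and 3 lower, against 10.7% and 7.89% of all genes. The lowest was Acacb, an acetyl-CoA carboxylase of the mitochondrial surface that limits fatty acid oxidation, with a log2 change of -0.35 ± 0.05 and a limma adjusted p of 0.0759. Pan2, a deadenylase subunit, had a log2 change of -0.18 ± 0.05 (0.177), and Nucb1, a Golgi calcium-binding protein, one of -0.12 ± 0.04 (0.233). These genes were named after their values were seen.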
